A study of Mus musculus with 6 samples.

Results

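Respiratory complex I was followed at the transcript level in EL4 cells, an established mouse T-cell lymphoma line, after exposure to RGFP966, which inhibits HDAC3, a histone deacetylase. Genes were taken by symbol from the deposited count table: every symbol that begins with Ndufa, Ndufb, Ndufc, Ndufs, Ndufv, Ndufab or Ndufaf and a number, or with mt-Nd. The rule found 58 of 51912 rows. They are 37 nuclear genes of complex I subunits, 7 subunit genes of the mitochondrial genome, 8 Ndufaf genes of assembly factors, 4 pseudogenes or second copies, and Ndufa4 and Ndufa4l2, which carry the family name but are not subunits of the complex in current descriptions. The 2 groups were wild-type EL4 cells given vehicle, with the solvent not named, and wild-type EL4 cells given 10 µM RGFP966, both for 24 h before harvest. Each had 3 libraries, and both groups rest on this 1 cell line. The labels name no separate cultures for the libraries, so p-values measure the spread between these libraries, which may be technical.

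Complex I, the NADH:ubiquinone oxidoreductase, is the first enzyme of the mitochondrial respiratory chain. It takes electrons from NADH at the tip of a matrix arm (the N module), passes them along iron-sulphur clusters to ubiquinone (the Q module), and pumps protons through a membrane arm. The catalytic core is built from nuclear and mitochondrial gene products together, with accessory subunits around it, and assembly factors join the modules without remaining in the finished enzyme. Proliferating T cells and lymphomas use its NAD+ regeneration for aspartate and nucleotide synthesis as well as for ATP.

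Library totals ran from 12935443 to 16451017 counts, and no library repeated another: chi-square per degree of freedom between libraries of the same group was 2.22 to 3.53. The labels call the samples EL4 cells, although their extraction text speaks of retinas. The 9 T cell markers summed to between 1936 and 2016 CPM (counts scaled to a common library total) in every library, with Cd2 (log2 fold change 0.56) and Cd5 (0.28) called higher and Lat (-0.22) and Cd247 (-0.23) lower with RGFP966. The 8 retina markers summed to between 4.32 and 4.94, with the photoreceptor genes Gnat1 and Crx at 0. Of the 4 markers each of endothelium and fibroblasts, 2 and 1 were called higher with RGFP966, and their sums went from 53.4 to 56.0 up to 66.6 to 68.7 CPM and from 44.0 to 44.7 up to 54.0 to 57.2. Most of these sums came from Pecam1 and Pdgfra, at 51.7 and 44.3 CPM in vehicle libraries. Kdr was at 0, as were Ms4a1 of B cells and Epcam of epithelium, but their whole lists were not. The 4 B cell markers summed to 0.486 to 1.03 CPM across libraries and the 4 of epithelium to 0.669 to 1.83. The 5 macrophage markers summed to 12.2 to 13.6 CPM and the 4 erythroid markers to 0.780 to 1.155. The part of these markers in the results on complex I was not tested. Fewer transcripts per cell and a change in the mixture of cells cannot be told apart in such bulk libraries.

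Complex I transcripts were lower with RGFP966 across both arms of the enzyme, by small amounts and not in every member. Ndufs8 and Ndufs7 encode the iron-sulphur subunits next to the ubiquinone site. Ndufs8 fell by 31.4%, Ndufs7 fell by 21.9%, and the assembly factor gene Ndufaf3 fell by 31.5%. Ndufv3, an accessory subunit gene of the N module, was the 1 member called higher, and it rose by 15.4%. Of the 58 rows 56 passed the filter on low counts, and 20 of them were called lower at an adjusted p under 0.05 in edgeR's quasi-likelihood test. Among all 13484 genes tested, 11.9% were called lower and 11.4% higher. By origin, 16 of 37 nuclear subunit genes (43.2%), 2 of 7 mitochondrially encoded subunit genes (28.6%) and 2 of 8 Ndufaf genes (25%) were called lower. Their median log2 fold changes were -0.15, -0.05 and -0.09, beside -0.0019 over all genes tested. The mitochondrial median was unstable: it was -0.0195, -0.0227 and -0.1078 without vehicle library 1, 2 or 3, -0.0950 and -0.0222 without RGFP966 library 2 or 3, and 0.0010 without both vehicle library 2 and RGFP966 library 3. Called or not, 47 of the 56 rows had a log2 fold change below 0, against 50.4% of all genes. The difference between these classes was not tested. In 23 of the 56 tested rows every RGFP966 library lay below every vehicle library, and in 2 above, where all genes give 18.5% and 17.8%.

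A pair of libraries weighed on these counts. Vehicle library 2 was the highest of its group in 33 of the 45 subunit and Ndufaf genes outside the mitochondrial genome, and RGFP966 library 3 the lowest of its group in 30. Without vehicle library 2 there were 16 lower calls, where 10.8% of all genes were called lower. Without RGFP966 library 3 there were 14 (all genes 8.14%), and with both left out there were 10 (all genes 7.93%). The median of the nuclear subunit genes was -0.09 with both left out. The same 10 genes were called lower in all 20 settings tried: Ndufs8, Ndufs7, Ndufv1, Ndufa2, Ndufa10, Ndufa11, Ndufa13, Ndufb7, Ndufb10 and Ndufaf3. All settings draw on the same libraries, and the share of all tested genes that kept a lower call throughout is not given.

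**Figure D1:**
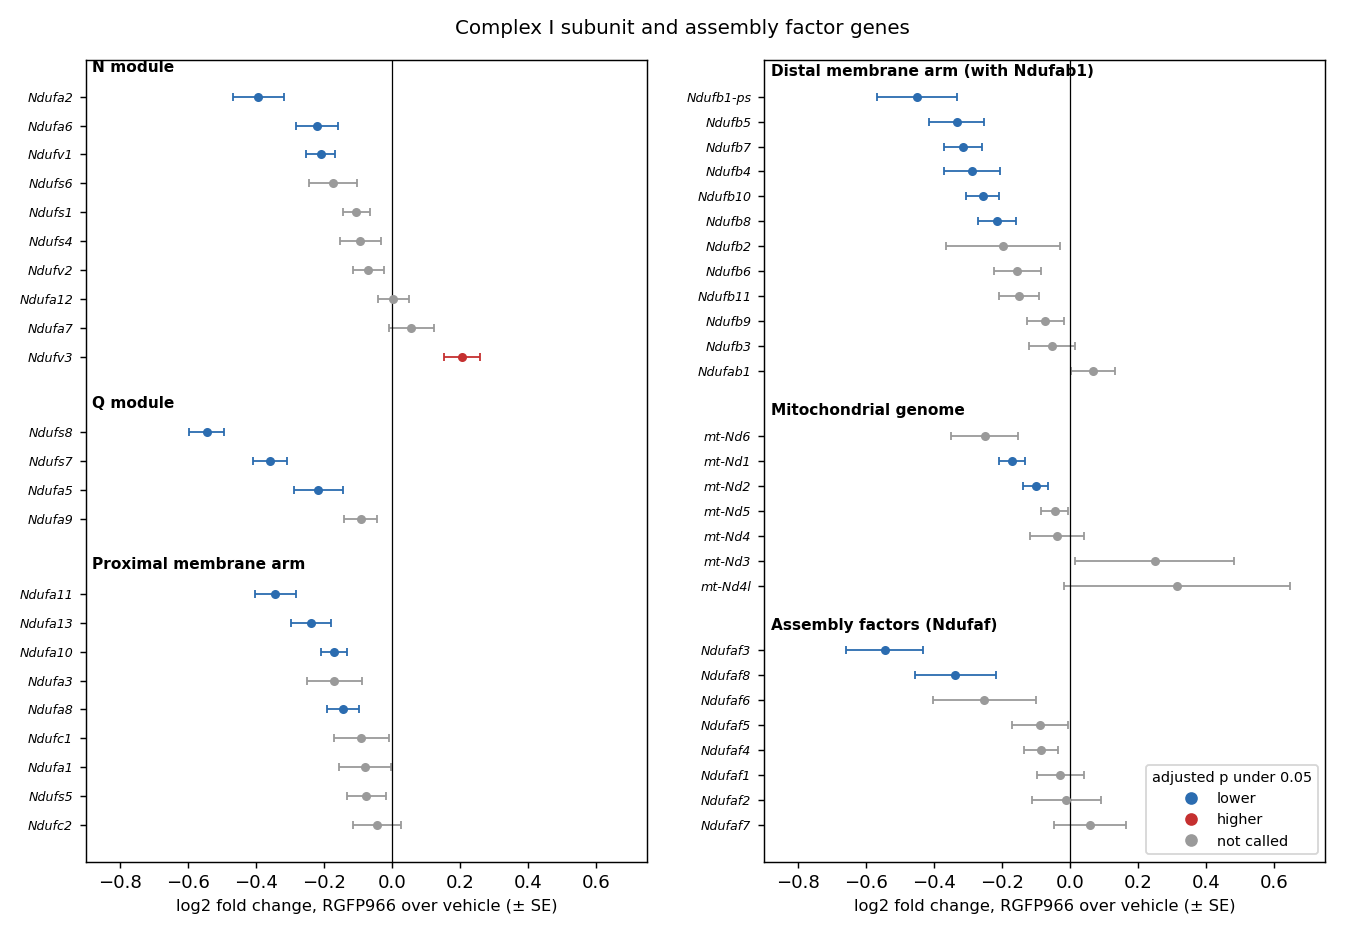
Log2 fold change (RGFP966 over vehicle, horizontal axis, with SE) of 35 nuclear subunit genes, 7 mitochondrially encoded subunit genes and 8 Ndufaf genes, grouped by position in the enzyme. Blue and red mark genes called lower and higher at an adjusted p under 0.05 and grey those not called; Ndufs3, with an SE of 1.26, and 1 further gene are left off. All 11 distal and all 9 proximal nuclear subunit genes of the membrane arm lie below 0, Ndufab1 not counted.

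In the Q module, which carries electrons to ubiquinone, 3 of 6 genes fell, with a median log2 fold change of -0.15. The subunit gene with the largest fall was Ndufs8, and Ndufb1-ps of the distal membrane arm and Ndufa2 of the N module came before Ndufs7. Ndufs8 (ENSMUSG00000059734, chromosome 19, 3908863 to 3912774, minus strand, mm10), a core subunit with a pair of iron-sulphur clusters, measured 96.0, 109.7 and 103.7 CPM in vehicle libraries 1 to 3 and 74.4, 67.0 and 70.8 CPM in RGFP966 libraries 1 to 3. The groups were well apart, and the log2 fold change was -0.54 ± 0.05 (SE, adjusted p = 1.26e-11), between -0.59 and -0.49 over all settings. Ndufs7 (ENSMUSG00000020153, chromosome 10, 80249121 to 80256794, plus strand), which holds the last cluster before ubiquinone, measured 89.4, 97.3 and 89.2 CPM in vehicle and 72.5, 73.1 and 69.96 CPM in RGFP966 libraries. All 3 treated libraries lay together below the vehicle range, and the log2 fold change was -0.36 ± 0.05 (adjusted p = 2.22e-07).

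Accessory genes of the Q module had smaller differences. Ndufa9, an accessory subunit at the junction of the arms, measured -0.09 (adjusted p = 0.165). Ndufa5, an accessory subunit bound to Ndufs3, went from 37.4, 45.4 and 38.1 to 34.5, 35.7 and 34.1 CPM. Its log2 fold change was -0.22 ± 0.07 (adjusted p = 0.0216). Vehicle library 2 stood above the other vehicle libraries, and without it Ndufa5 measured -0.12 (adjusted p = 0.274). The call was also lost without RGFP966 library 1 (adjusted p = 0.0677) or 3 (0.1004), and in the DESeq2 Wald test (0.0862).

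Counts of another core gene of the Q module, Ndufs3 (ENSMUSG00000005510, chromosome 2, 90894634 to 90904827, minus strand), gave no usable comparison. Its raw counts were 28, 151 and 36 in vehicle and 157, 36 and 5 in RGFP966 libraries, while Ndufs7 and Ndufs8 had counts between 864 and 1791. High and low libraries occurred in both groups, and the SE of its log2 fold change was 1.26 (adjusted p = 0.969). Its spread within groups was 1.58 on the log2 CPM scale, the widest of the 52 subunit and Ndufaf genes, and mt-Nd3 came next at 0.36. Of its exonic 50-base words 17.9% also occur in other annotated genes, most of them in the processed pseudogene Gm12251, which had counts of 36 to 70. Whether shared sequence sets the counts of Ndufs3 was not tested.

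In the N module, which oxidises NADH, 3 of 10 genes fell and 1 rose. Ndufv1, the core subunit that binds NADH and the flavin, measured 146, 149 and 156 CPM in vehicle and 127, 131 and 133 CPM in RGFP966 libraries. The groups did not overlap, at -0.21 ± 0.04 on the log2 scale (adjusted p = 1.87e-04). Its core partners Ndufv2 and Ndufs1, which hold further iron-sulphur clusters, measured -0.07 (adjusted p = 0.298) and -0.10 (adjusted p = 0.0511). Ndufs1 passed the threshold in 5 settings, among them the offsets for GC content and length (adjusted p = 5.36e-03).

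Accessory genes of the N module went both ways. Ndufa2, a small thioredoxin-like subunit, went from 37.8, 47.9 and 41.3 to 31.6, 34.7 and 30.6 CPM, or -0.39 ± 0.08 on the log2 scale (adjusted p = 9.26e-05). Tmco6, which lies on the opposite strand, overlaps 11.5% of its exons, and the strand setting of the counts is not known. Ndufa6, a LYR-motif subunit that binds the acyl carrier protein, measured 50.1, 55.3 and 49.6 CPM in vehicle and 46.7, 44.0 and 42.6 CPM in RGFP966 libraries (-0.22 ± 0.06, adjusted p = 6.95e-03). Its adjusted p was 0.0687 without vehicle library 2 and 0.0699 without RGFP966 library 3.

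Ndufv3 (ENSMUSG00000024038, chromosome 17, 31520115 to 31531331, plus strand), an accessory subunit with a short and a long isoform, went the other way. It measured 61.2, 59.2 and 59.9 CPM in vehicle and 73.6, 67.2 and 67.3 CPM in RGFP966 libraries. Every treated library was above every vehicle library, and the log2 fold change was 0.21 ± 0.05 (adjusted p = 3.29e-03). Library 1 of the treated group was the highest, and without it the adjusted p was 0.0581 (log2 fold change 0.16). Counts per gene cannot tell its isoforms apart. Ndufa12, Ndufa7, Ndufs4 and Ndufs6 were not called, at 0.00, 0.06, -0.09 and -0.17.

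**Figure D2:**
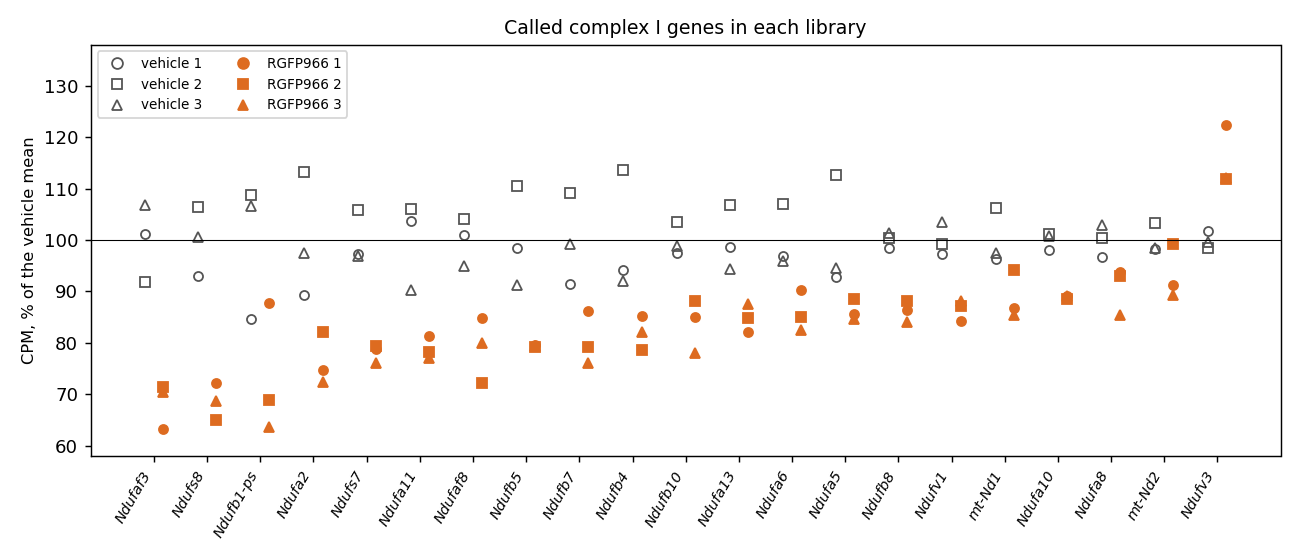
CPM of the 21 called subunit and Ndufaf genes in each library as a percentage of the gene's vehicle mean (vertical axis, which does not start at 0), open grey symbols for vehicle and filled orange symbols for RGFP966, 1 shape per replicate number. Ndufaf3, Ndufs8 and Ndufb1-ps reach lowest, all 3 treated libraries lie above it for Ndufv3 alone, and vehicle library 2 (open squares) is often the highest.

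Among nuclear genes of the proximal membrane arm, next to the matrix arm, 4 of 9 fell and the other 5 were not called. Ndufa11, a four-helix subunit at the contact with complex III, measured 65.8, 67.4 and 57.3 CPM in vehicle and 51.6, 49.7 and 48.9 CPM in RGFP966 libraries. The groups did not overlap, at -0.34 ± 0.06 on the log2 scale (adjusted p = 1.63e-05). Ndufa13, also known as GRIM-19, went from 57.8, 62.5 and 55.3 to 48.1, 49.6 and 51.3 CPM (-0.24 ± 0.06, adjusted p = 2.11e-03). Tssk6 on the opposite strand overlaps 30% of its exons and held 45 to 67 counts, where Ndufa13 had 640 to 1021. With the strand setting not given, the part of this overlap in the values of Ndufa13 was not tested.

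The most abundant of this arm in CPM, Ndufa10, measured 240.2, 247.9 and 246.7 CPM in vehicle and 218.1, 216.9 and 218.1 CPM in RGFP966 libraries. Ndufa10 resembles nucleoside kinases in fold. Its libraries were the tightest of any called member, and its log2 fold change was -0.17 ± 0.04 (adjusted p = 6.68e-04). Ndufa8, a subunit of the intermembrane side, went from 99.4, 103.1 and 105.7 to 96.3, 95.5 and 87.7 CPM (-0.14 ± 0.05, adjusted p = 0.0234). It lost the call in 8 of 20 settings, with adjusted p = 0.123 without vehicle library 3, 0.2495 without RGFP966 library 3, 0.0614 with upper-quartile factors, 0.0820 in the DESeq2 Wald test and 0.0885 once GC and length offsets were added. Ndufa3, Ndufa1, Ndufs5, Ndufc1 and Ndufc2 lay between -0.17 and -0.04.

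In the distal membrane arm, the far end of the proton pump, 6 of 11 nuclear genes fell and all 11 had a value below 0, with a median of -0.21. Ndufb7, another subunit of the intermembrane side, measured 81.3, 97.0 and 88.1 CPM in vehicle and 76.5, 70.3 and 67.6 CPM in RGFP966 libraries (-0.32 ± 0.06, adjusted p = 4.54e-05). Ndufb10, which has the same location, went from 99.3, 105.5 and 100.8 to 86.6, 89.8 and 79.6 CPM (-0.26 ± 0.05, adjusted p = 6.87e-05). Neither gene's groups overlapped.

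Ndufb8 measured 58.8, 59.9 and 60.5 CPM in vehicle and 51.6, 52.7 and 50.3 CPM in RGFP966 libraries (-0.21 ± 0.06, adjusted p = 3.41e-03). Ndufb5 went from 29.5, 33.2 and 27.4 to 23.9, 23.8 and 23.9 CPM (-0.33 ± 0.08, adjusted p = 1.50e-03). Of Ndufb5's exons 12.3% are overlapped by Mrpl47 on the opposite strand. Both are single-span membrane subunits, and both kept their calls whichever single library was left out. With vehicle library 2 and RGFP966 library 3 both left out their adjusted p was 0.0505 and 0.0749. Ndufb4 went from 28.6, 34.5 and 27.95 to 25.9, 23.9 and 24.9 CPM (-0.29 ± 0.08, adjusted p = 6.98e-03), and without vehicle library 2, its highest, it measured -0.18 (adjusted p = 0.1304).

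The row Ndufb1-ps stands at the locus of the Ndufb1 subunit and is typed as a noncoding transcript in the annotation used, GENCODE M21. It measured 13.6, 17.5 and 17.1 CPM in vehicle and 14.1, 11.1 and 10.3 CPM in RGFP966 libraries. Of its exons 12.7% are overlapped by Cpsf2 on the opposite strand, which had 2308 to 2369 counts in vehicle and 1749 to 1905 in RGFP966 libraries, before scaling to library totals. With the strand setting not given, the part of Cpsf2 in these values was not tested. RGFP966 library 1 lay within the vehicle range, the 1 called nuclear member whose groups overlapped, at -0.45 ± 0.12 on the log2 scale (adjusted p = 3.46e-03). Without RGFP966 library 3 its adjusted p was 0.0581 (-0.34). Ndufb2, Ndufb3, Ndufb6, Ndufb9 and Ndufb11 were not called, at -0.20, -0.05, -0.15, -0.07 and -0.15. Overlap with a gene on the opposite strand covered 39% of the exons of Ndufb6 (Smim27) and 12.9% of those of Ndufb11 (Rbm10). Ndufab1, the acyl carrier protein found once in each arm and also needed for lipoic acid synthesis, measured 0.07 (adjusted p = 0.503).

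The 7 subunit genes of the mitochondrial genome are all core subunits of the membrane arm and are cut from long transcripts of the circular genome. Of these, mt-Nd1, at the quinone entry site (ENSMUSG00000064341, bases 2751 to 3707 of the mitochondrial genome), measured 2606, 2875 and 2640 CPM in vehicle and 2351, 2548 and 2313 CPM in RGFP966 libraries. The groups did not overlap, and the log2 fold change was -0.17 ± 0.04 (adjusted p = 8.30e-04). With vehicle library 2 and RGFP966 library 3 both left out it was -0.09 (adjusted p = 0.0663). The next gene downstream among the subunits, mt-Nd2, a proton-pumping subunit, measured 1374, 1445 and 1376 CPM in vehicle and 1276, 1387 and 1248 CPM in RGFP966 libraries. These ranges overlapped in RGFP966 library 2, the log2 fold change was -0.10 ± 0.04 (adjusted p = 0.0381), and the call was lost in 12 of 20 settings, with an adjusted p of up to 0.318 when 1 library was left out.

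The distal pump genes mt-Nd4 and mt-Nd5 showed no detectable difference. In vehicle libraries mt-Nd5 measured 1480, 1482 and 1340 CPM, and in RGFP966 libraries 1329, 1481 and 1357 CPM (log2 fold change -0.05 ± 0.04, adjusted p = 0.466). For mt-Nd4 the values were 1160, 1205 and 977 against 1082, 1103 and 1068 CPM (-0.04 ± 0.08, adjusted p = 0.791). Vehicle library 3 was low for mt-Nd4, and without it the gene measured -0.12 (adjusted p = 0.0284).

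The 1 complex I gene on the other strand of the circle, mt-Nd6 (bases 13552 to 14070), measured 140.8, 154.5 and 177 CPM in vehicle and 128.5, 143.5 and 125 CPM in RGFP966 libraries. RGFP966 library 2 overlapped the vehicle range, and the log2 fold change of -0.25 ± 0.10 was not called (adjusted p = 0.141). It passed in 5 of 20 settings, among them limma-voom (adjusted p = 3.54e-03) and the fit without vehicle library 1 (6.09e-05), and its adjusted p reached 0.5296 with vehicle library 2 and RGFP966 library 3 both left out. Its call thus turned on the test and on single libraries.

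Counts of the 2 smallest mitochondrial members were near the lower limit. For mt-Nd3 the values were 2.87, 4.04 and 1.79 CPM against 3.60, 3.65 and 3.15 CPM (0.25 ± 0.23, adjusted p = 0.496), and for mt-Nd4l 1.44, 1.23 and 0.959 against 1.91, 1.47 and 1.14 CPM (0.31 ± 0.33, adjusted p = 0.552). Of the 50-base words of mt-Nd3, mt-Nd4l and mt-Nd4, 98%, 98.8% and 62.2% also occur in annotated nuclear pseudogenes (Gm28438, Gm10222 and Gm28439), against 0% in mt-Nd1 and mt-Nd6 and 7.6% to 8.2% in mt-Nd5 and mt-Nd2. The sources do not state how reads matching both places were counted, so the levels of those 3 genes are uncertain. The pseudogenes themselves held 106 to 407, 12 to 22 and 175 to 286 counts.

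**Figure D3:**
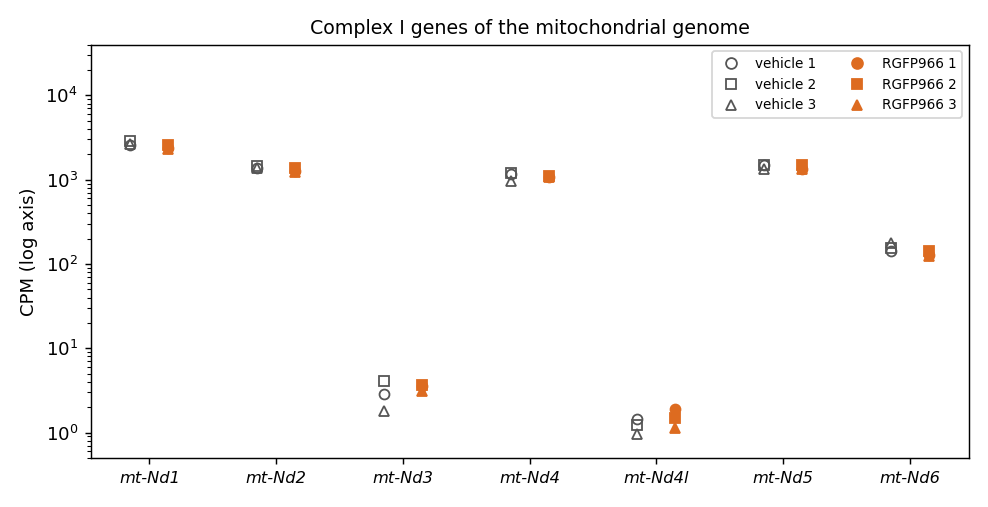
CPM on a log axis of the 7 complex I genes of the mitochondrial genome in each library, open grey symbols for vehicle and filled orange symbols for RGFP966. Of the 7, 5 lie between 125 and 2875 CPM, while mt-Nd3 and mt-Nd4l, which share nearly all their sequence with nuclear pseudogenes, lie between 0.959 and 4.04 CPM.

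Within the mitochondrial transcripts, mt-Nd1 took 8.66%, 9.06% and 9.27% of protein-coding mitochondrial counts in vehicle and 8.20%, 8.47% and 8.20% in RGFP966 libraries. The groups did not overlap, and the exact permutation test (two-sided) gave p = 0.1, the lowest it can reach with 3 libraries against 3. The genes of the other complexes on the same genome were not called by edgeR in 5 of 5 tested cases, with 0 at an unadjusted p under 0.05 and a median of -0.04: mt-Co1, the most abundant, measured -0.04 (adjusted p = 0.497) and mt-Cytb -0.05 (adjusted p = 0.414). The SEs of mt-Co2, mt-Co3 and mt-Atp6 were 0.23, 0.32 and 0.23, too wide to show a fall like the -0.17 of mt-Nd1. The large ribosomal RNA gene mt-Rnr2, upstream of mt-Nd1 on the circle, fell by 0.25 (adjusted p = 4.01e-04), while mt-Rnr1 measured -0.02. The mitochondrial genome as a whole made up 3.06% ± 0.165 (SD, n = 3) of all counts with vehicle. With RGFP966 it made up 2.97% ± 0.0838, and the exact permutation test (two-sided) gave p = 0.6.

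Summed over members, the group means of the nuclear and of the mitochondrial genes were both lower with RGFP966. The 37 nuclear subunit genes together measured 2679, 2891 and 2735 CPM in vehicle and 2551, 2539 and 2414 CPM in RGFP966 libraries, a difference of means of -9.66%. The 7 mitochondrial genes measured 6765, 7167 and 6513 against 6173, 6667 and 6116 CPM, a difference of means of -7.28%, with RGFP966 library 2 inside the vehicle range. Their ratio, mitochondrial over nuclear, was 2.53, 2.48 and 2.38 in vehicle and 2.42, 2.63 and 2.53 in RGFP966 libraries, and these overlapped. No p-value is given for these sums. The log2 ratio of the mitochondrial sums was -0.11, and it ran from -0.15 without RGFP966 library 2 to -0.07 without vehicle library 2. Most of the mitochondrial sum is mt-Nd1, mt-Nd5, mt-Nd2 and mt-Nd4.

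**Figure D4:**
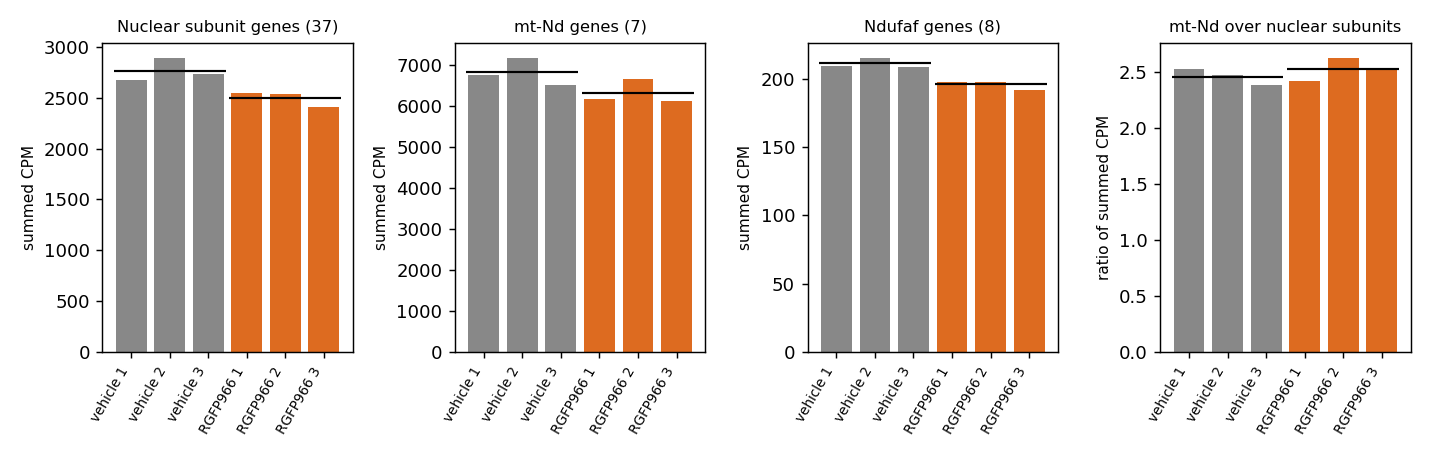
Summed CPM of the 37 nuclear subunit genes, 7 mt-Nd genes and 8 Ndufaf genes, and the ratio of mt-Nd to nuclear subunit sums, in each library (bars from 0) with the group means as black lines, grey for vehicle and orange for RGFP966. The nuclear and Ndufaf sums do not overlap between groups, whereas the mt-Nd sums and the ratio do.

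Assembly factors were measured by 8 Ndufaf genes and 11 others. Ndufaf3 (ENSMUSG00000070283, chromosome 9, 108565537 to 108567434, minus strand), which works with Ndufaf4 on the Q module, measured 15.4, 13.96 and 16.3 CPM in vehicle and 9.63, 10.9 and 10.7 CPM in RGFP966 libraries. All treated libraries lay below all vehicle libraries, at -0.55 ± 0.11 on the log2 scale (adjusted p = 2.10e-04), between -0.62 and -0.49 over all settings. Its partner Ndufaf4, at 83.2, 88.9 and 82.8 against 80.8, 80.0 and 79.3 CPM, measured -0.09 (adjusted p = 0.217).

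Ndufaf8, which stabilises the Ndufs7-modifying enzyme Ndufaf5, went from 12.6, 12.98 and 11.8 to 10.6, 8.996 and 9.99 CPM (-0.34 ± 0.12, adjusted p = 0.0306). That call was lost in 9 of 20 settings, with adjusted p of 0.0748 to 0.133 where 1 of vehicle libraries 1 or 2 or RGFP966 libraries 2 or 3 was left out, 0.0927 in the DESeq2 Wald test and 0.0848 once GC and length offsets were added. Ndufaf5 itself measured -0.09 (adjusted p = 0.4898). Ndufaf7, a methyltransferase that acts on complex I, measured 0.06, Ndufaf6 -0.25 (adjusted p = 0.244), Ndufaf1 of the membrane arm intermediate -0.03, and Ndufaf2 -0.01. Of Ndufaf2's exons 65.6% are overlapped by B230220B15Rik on the opposite strand.

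The 8 Ndufaf genes summed to 209.4, 215 and 208.8 CPM in vehicle and 197.8, 197.7 and 191.9 CPM in RGFP966 libraries, a difference of means of -7.24%. Among the 11 assembly factors with other names, 1 fell (9.09%) and 2 rose, with a median of 0.01. Among all genes tested 11.9% fell and 11.4% rose. Ecsit, which binds Ndufaf1, went from 25.8 ± 1.57 (SD, n = 3) to 21.3 ± 0.835 CPM (-0.28 ± 0.08 SE, adjusted p = 0.0118). Tmem70, known for complex V as well as complex I assembly, went from 78.4 ± 4.37 to 94.5 ± 1.47 CPM (0.27 ± 0.05, adjusted p = 3.62e-05). Nubpl, which delivers iron-sulphur clusters to complex I, went from 9.60 ± 1.10 to 12.3 ± 0.509 CPM (0.36 ± 0.12, adjusted p = 0.0241). Acad9, Tmem126b and Timmdc1, which act on the membrane arm, measured 0.00, 0.01 and 0.04 and were not called.

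The rows that are not complex I subunits were not called. Ndufa4, which is now placed in complex IV, was the most abundant nuclear member per length, at 274.6 CPM per kilobase of its main transcript in vehicle libraries, and measured 154, 184 and 165 CPM against 163, 165 and 159.8 CPM (log2 fold change -0.04, adjusted p = 0.568). Its hypoxia-induced paralogue Ndufa4l2 had counts of 0 to 5 and was not tested. The pseudogene Ndufa11b, not tested either, had 1 count in all. Ndufab1-ps, which shares 74.2% of its words with other genes, Ndufab1 most, measured 0.37 ± 0.15 (adjusted p = 0.0642) and passed in 5 of 20 settings. Ndufb4c, all of whose words occur in Ndufb4 or other copies, and Ndufs6b measured -0.23 and -0.56 from 2.92 and 0.930 CPM (adjusted p = 0.5395 and 0.504).

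Per length, subunit genes spanned a wide range. In CPM per kilobase of the principal transcript, vehicle means ran from 2829 for mt-Nd1 down to 303.5 for mt-Nd6 among the 5 mitochondrial genes with little or partial sequence sharing. They ran from 142.5 for Ndufb7 to 12.1 for Ndufab1 among nuclear subunit genes, leaving out Ndufs3 (4.26) and Ndufb2 (1.40, on a transcript model of 4371 bases). The Ndufaf genes lay at 24.1 or less, with Ndufaf1 highest and Ndufaf6 lowest at 7.64. The 11 assembly factors with other names were not measured per length.

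Members that fell had a higher median GC content. Transcripts of the 18 nuclear members called lower had a median GC content of 54.3%, against 48.5% for the 26 not called. Across the 45 nuclear members, which share libraries and depth, Spearman's rho between GC content and log2 fold change was -0.49 as a description, and for transcript length it was 0.21. Over 13455 tested genes rho with GC content was -0.10. After offsets that remove a smooth trend with GC content and length in each library, rho was 0.02 over all genes and -0.39 in the 45 members, 19 members were called lower, and the nuclear subunit median was -0.14.

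**Figure D5:**
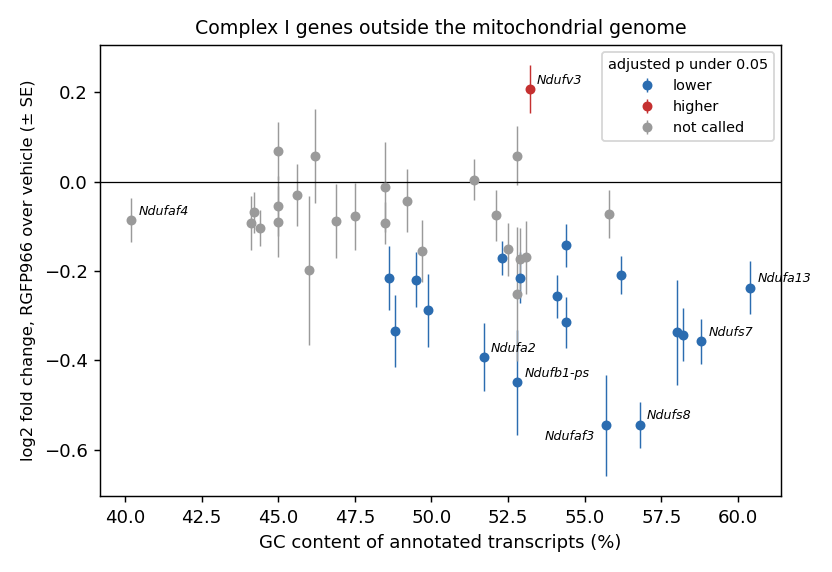
Log2 fold change (vertical axis, with SE) against the GC content of annotated transcripts (horizontal axis, percent) for 43 subunit and Ndufaf genes outside the mitochondrial genome, Ndufs3 and 1 further gene left off. Points called lower (blue) begin at 48.6% GC, and Ndufv3, at 53.2%, is the 1 point called higher (red).

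Promoters were compared because many of these genes were called lower and because nuclear respiratory factor 1 (NRF1) is a classical activator of respiratory genes. RefSeq promoter windows (GRCm38.p6, 250 bases before to 50 after the start) were found for 40 of the 45 nuclear members. The NRF1 motif, GCGC followed by any base and TGCGC, was searched on both strands. It occurred in 9 of 40 (22.5%), against 12% of 9356 tested genes with a window and 5.19% of all 27025. It occurred in 5 of 17 members called lower, namely Ndufa11, Ndufa5, Ndufa6, Ndufa8 and Ndufb4, and in 4 of 22 not called, namely Ndufaf4, Ndufaf5, Ndufs5 and Ndufs6. The stretches shown hold a match and lie before the annotated start and outside every annotated exon, with the match in capitals, 5′ to 3′ on the gene's strand.
Ndufb4, lower, chr16:37654454-37654584, minus strand: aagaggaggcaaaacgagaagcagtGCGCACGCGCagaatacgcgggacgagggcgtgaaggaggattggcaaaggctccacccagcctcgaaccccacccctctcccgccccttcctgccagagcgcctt
Ndufaf4, not called, chr4:24897945-24898004, plus strand: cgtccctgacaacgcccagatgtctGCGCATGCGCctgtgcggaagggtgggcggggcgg
Ndufs5, not called, chr4:123718250-123718309, minus strand: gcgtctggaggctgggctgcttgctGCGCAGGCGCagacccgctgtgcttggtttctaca
Both kinds of member thus hold the motif, and the whole window of Ndufb4 holds it 3 times.

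The subunit gene with the strongest fall, Ndufs8, has no match of NRF1 or of 4 other motifs in the 150 bases before its start, which are shown for that reason.
Ndufs8, lower, chr19:3912775-3912924, minus strand: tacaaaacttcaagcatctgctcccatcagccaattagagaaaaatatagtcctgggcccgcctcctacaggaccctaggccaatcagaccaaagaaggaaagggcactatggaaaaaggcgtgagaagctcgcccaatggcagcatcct
The 4 were the ETS motif CCGGAAG (in 6 of 40 members, 15%, against 21.5% of tested genes), the YY1 motif AAGATGGC (8 of 40, 20%, against 5.68%), the SP1 motif GGGCGGG (16 of 40, 40%, against 50.5%) and the cyclic AMP response element TGACGTCA (3 of 40, 7.5%, against 3.71%), each on both strands, with 0 overlaps between different motifs in the members. An ETS match of Ndufs8 lies after its start, at 15 to 21 bases. The 8 YY1 matches all lie after the start, at 10 to 45 bases. Among members called lower, 9 of 17 (52.9%) hold the SP1 motif, near the 50.5% of tested genes, and 6 of 22 (27.3%) not called do. For YY1 the counts were 3 of 17 and 5 of 22, and for ETS 3 of 17 and 3 of 22. For the cyclic AMP response element they were 2 of 17 and 1 of 22. These splits were not tested. A match is a run of letters and not a measured binding site.

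Of 11 regulators of nuclear respiratory genes 4 fell (36.4%) and 2 rose, with a median of -0.01, where all genes gave 11.9% and 11.4%. Nrf1, the gene of NRF1, was not called (-0.01, adjusted p = 0.938), nor was the ETS-family gene Gabpa (-0.07, adjusted p = 0.314). Yy1, the gene of YY1, rose by 0.12 (adjusted p = 0.0240). Gabpb2, a partner of Gabpa, went from 265.6 ± 4.56 (SD, n = 3) to 219 ± 10.99 CPM (-0.28 ± 0.04 SE, adjusted p = 4.16e-07). The nuclear receptor gene Esrra fell by 0.23 (adjusted p = 2.68e-03) and the PGC-1 family coactivator gene Pprc1 by 0.17 (adjusted p = 2.84e-03), while Myc rose by 0.18 (adjusted p = 3.55e-04). Of 27 tested genes for mitochondrial RNA synthesis and upkeep 2 (7.41%) fell and 0 rose by edgeR, against 11.9% and 11.4% of all genes. At an unadjusted p under 0.05 there were 7 of the 27, where all 13484 genes tested gave 4553. Those that fell were Lrpprc, an mRNA-stabilising protein gene (-0.16, adjusted p = 6.98e-03), and Polg, the mitochondrial DNA polymerase gene (-0.19, adjusted p = 8.90e-03). Tfam, the main transcription factor of the mitochondrial genome, measured 0.11 (adjusted p = 0.0909).

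Among the nuclear subunit genes of complexes II to V, 23 of 39 tested (59%) were called lower and 0 higher by edgeR. All genes gave 11.9% and 11.4%. At an unadjusted p under 0.05 there were 25 of the 39, where all 13484 genes tested gave 4553. The median of the 39 was -0.17, beside 16 of 37 called lower and a median of -0.15 in complex I. The DESeq2 Wald test called 22 lower and 0 higher, and with vehicle library 2 and RGFP966 library 3 both left out edgeR called 12 lower. All genes gave 1126 and 1068 lower calls in these fits, beside 1602 in the main fit. By complex the lower calls were 1 of 4, 3 of 9, 7 of 10 and 12 of 16 in II, III, IV and V. In complex V, Atp5g1, a subunit of the proton-conducting ring, went from 160.2 ± 9.43 to 123 ± 1.30 CPM (-0.38 ± 0.04 SE, adjusted p = 2.71e-09). In complex IV, Cox5b, a zinc-binding subunit, fell by 0.37 (adjusted p = 8.23e-09). These differences are of the size of those of the called complex I genes, and a difference between complexes was not tested.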

How the data were processed

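The authors deposited raw read counts per Ensembl mouse gene for 6 RNA sequencing libraries. The submitters' processing notes name HTSeq 0.6.0, HISAT2 2.1.0, Bowtie2 2.2.3, TopHat2, CASAVA and the build mm10, in no stated role or order. Annotation release, strand setting and read length are not given there. Symbols matched 51633 of 51912 IDs (99.46%), and GENCODE M21 (same assembly) gave positions, exons and GC content. Shared sequence is the percentage of a gene's 50-base transcript words found in other annotated genes.

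All genes were fitted together in edgeR 4.0.16 (R 4.3.3): filterByExpr defaults, trimmed mean of M values (TMM) factors and the robust quasi-likelihood test with group as the only term. A call is a Benjamini-Hochberg adjusted p under 0.05 over all 13484 tested genes. Fold changes are RGFP966 over vehicle, and each SE is the size of the log2 fold change divided by the root of its F statistic. Levels are CPM of TMM-scaled totals of the tested genes, also for single markers, but sums of cell-type markers use unscaled totals. On simulated data of 13484 genes, most left unchanged, the test called 57% of 1.25-fold and 73.7% of 1.5-fold changes, with 20 false calls. Few genes were changed, so 20 false calls are not few beside the true ones. The data gave 1602 lower and 1543 higher calls, so the simulated rates need not hold for them. Smaller changes were not simulated. Alternatives used other scalings, filters and offsets, limma-voom (limma 3.58.1), the DESeq2 1.42.0 Wald test, a replicate block and left-out libraries. Correlations of same-numbered libraries' deviations from their group means were -0.01, 0.03 and 0.00.

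Every subunit or Ndufaf gene that was called and all 7 mitochondrial subunit genes are given by library, the others by class. From other lists up to 4 called genes of smallest adjusted p were eligible, and other genes named from them (Nrf1, Gabpa, Yy1, Tfam, Acad9, Tmem126b, Timmdc1, mt-Co1, mt-Co2, mt-Co3, mt-Atp6, mt-Cytb, mt-Rnr1 and markers) were chosen after their values were seen. Members and lists were chosen with earlier results of these data known. Promoter motifs and the fit without 2 libraries were also chosen after seeing the data. Values of 1 member and 1 marker are not reported here, though both count in the totals given.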

Additional observations from a re-analysis of the deposited data

How the results depend on the processing

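Over 20 alternatives the count of complex I genes called lower ran from 14 to 23, beside 20, with the exception of the fit, chosen after seeing the data, that left out both vehicle library 2 and RGFP966 library 3, which gave 10 with 4 libraries. Leaving out 1 library gave 14 to 21 lower and 0 to 2 higher calls, with 8.14% to 10.8% of all genes called lower. The count of higher calls, 1, was 2 at a minimum mean of 5 CPM, with offsets for GC content and length (centred, not centred, and with the replicate block), where the pseudogene Ndufab1-ps joined Ndufv3. The replicate block gave 23 lower and 1 higher calls, with 13.1% of all genes called lower. It added Ndufb11, Ndufs1 and Ndufs6 (adjusted p = 0.0469, 0.0357 and 0.0490). Replicate numbers were not stated to mark shared cultures, and 1 of 3 RGFP966 libraries correlated best with its own number. The nuclear subunit median ran from -0.18 to -0.12 and the Ndufaf median from -0.1234 to -0.0595 when 1 library was left out, and the latter was -0.0449 without both. The mitochondrial median, -0.0459, ran from -0.1078 to -0.0195, and was 0.0010 without both. Of 21 called members, 10 kept the call in all 20 alternatives and 11 lost it in at least 1, with no such share given for all genes. Of 31 not called, 5 gained it in at least 1. Over all genes 50.9% of calls were lower, against 40.9% (1270 lower, 1838 higher) with upper-quartile factors. Under these factors 18 complex I genes and 9.42% of all genes were called lower. Counts of mt-Nd3, mt-Nd4l and Ndufs3 reached down to 28, 15 and 5, and what sets the spread of Ndufs3 was not tested.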
